A study of Mus musculus with 16 samples.

Results

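The genes described here are 8 genes used as markers of the enteric nervous system: Elavl4, Prph, Nos1, Chat and Ret for neurons, and Sox10, S100b and Gfap for glia. Counts from bulk tissue do not show which cells made a transcript. The 8 genes were chosen by symbol, by a rule that uses no measured value, though with earlier results of these data known. All 8 were found among the 55359 gene identifiers of the count table. Total RNA was sequenced from the duodenum and ileum of 8 adult male C57BL/6N mice on a high fat diet, 5 weeks after tamoxifen. The 4 mutant mice (M136, M167, M168 and M177) were Neurog3f/f; Villin-CreERT2, with both Neurog3 alleles floxed and a tamoxifen-dependent Cre recombinase driven by the promoter of Villin, a gene of the gut epithelium. The 4 control mice (C133, C134, C151 and C154) were Neurog3f/f without the recombinase, and each mouse gave 1 library of each tissue. Neurog3 encodes the transcription factor that starts the formation of enteroendocrine cells, the hormone-producing cells of the epithelium. The comparison asks whether the transcripts of the gut's own neurons and glia differ between tissues with and without those cells.

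The enteric nervous system lies in the gut wall as a plexus between the muscle layers and a second plexus under the mucosa. Its neurons and glia come from neural crest cells that colonise the gut under the control of the receptor RET and of endothelin signalling. Mature neurons signal to muscle, vessels and epithelium with acetylcholine, nitric oxide and peptides, and enteroendocrine cells lie close to nerve fibres of the mucosa.

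The labels were checked first on Neurog3 itself. Neurog3 had 123 to 175 counts in each control duodenum and 27 to 70 in each control ileum. It had 1 count in all mutant duodenum libraries together and 1 in all mutant ileum libraries. Libraries held 40.9 to 67.2 M counts. Some libraries stood apart in RNA of neighbouring tissue. The summed level of exocrine pancreas genes, in counts per M counts of the scaled library (CPM), was 29760, 8.91, 18860 and 4.17 in the duodenum of C133, C134, C151 and C154, and 8076, 182000, 40450 and 174200 in that of M136, M167, M168 and M177, against 2.23 to 2645 in the ileum. In the duodenum the fat cell gene Adipoq, chosen after its values were seen, reached 2.41 CPM in C134 and at most 0.0627 in the other libraries, and in the ileum it lay between 1.21 and 10.1 CPM. All 6 fat cell genes together had a summed level of 329.2 to 606.4 CPM in control duodenum, 143 to 446.1 in mutant duodenum, 131.5 to 169.6 in control ileum and 99.89 to 177.2 in mutant ileum. Between the tissues of control mice 3 of these 6 were higher in the ileum and 2 lower, Cidec with a log2 difference of -2.01 and Cd36, a fatty acid transporter that enterocytes also make, with -1.80 (adjusted p = 2.19e-06 and 0.000117). Smooth muscle genes, which mark the muscle wall that holds the plexus, had a summed level of 1521 to 1973 CPM in control duodenum, 1498 to 2524 in mutant duodenum, 3420 to 4842 in control ileum and 3289 to 5234 in mutant ileum. The part that these tissues had in the results below was not tested, except where a fit with the muscle genes or without named mice is given.

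All 8 genes were expressed in every library, at low levels. Per kilobase of annotated exon, mean levels in control duodenum were 1.84 ± 0.248 CPM per kilobase for Ret, 1.83 ± 0.360 for Prph, 0.540 ± 0.215 for S100b, 0.425 ± 0.0376 for Elavl4, 0.267 ± 0.0349 for Sox10, 0.216 ± 0.0442 for Nos1, 0.129 ± 0.0173 for Gfap and 0.0497 ± 0.00684 for Chat (mean ± SD, n = 4). The ranges of mean ± SD overlapped for the neighbours Ret and Prph, S100b and Elavl4, and Sox10 and Nos1. In control ileum the order was Prph at 3.61 ± 0.799, Ret at 3.44 ± 0.319, Elavl4 at 1.01 ± 0.403, Nos1 at 0.941 ± 0.368, Sox10 at 0.654 ± 0.353, S100b at 0.522 ± 0.142, Gfap at 0.219 ± 0.143 and Chat at 0.108 ± 0.0438. These ranges overlapped for Prph and Ret, for each neighbouring pair from Elavl4 to S100b, and for Gfap and Chat. In mutant duodenum the order was Prph at 2.29 ± 0.470, Ret at 1.11 ± 0.272, Elavl4 at 0.616 ± 0.253, S100b at 0.587 ± 0.194, Nos1 at 0.344 ± 0.173, Sox10 at 0.271 ± 0.0520, Gfap at 0.170 ± 0.0497 and Chat at 0.106 ± 0.0308. Prph stood apart from Ret there, while each neighbouring pair from Ret to Chat overlapped. In mutant ileum it was Ret at 4.45 ± 1.08, Prph at 2.76 ± 0.854, Nos1 at 0.770 ± 0.347, Elavl4 at 0.697 ± 0.172, Sox10 at 0.391 ± 0.110, Gfap at 0.370 ± 0.279, S100b at 0.330 ± 0.117 and Chat at 0.101 ± 0.0440, with overlap for Ret and Prph, for Nos1 and Elavl4, and for Sox10, Gfap and S100b. Chat rested on 10 to 54 counts per library, the fewest of the 8 genes, which limits the precision of its values.

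**Figure D1:**
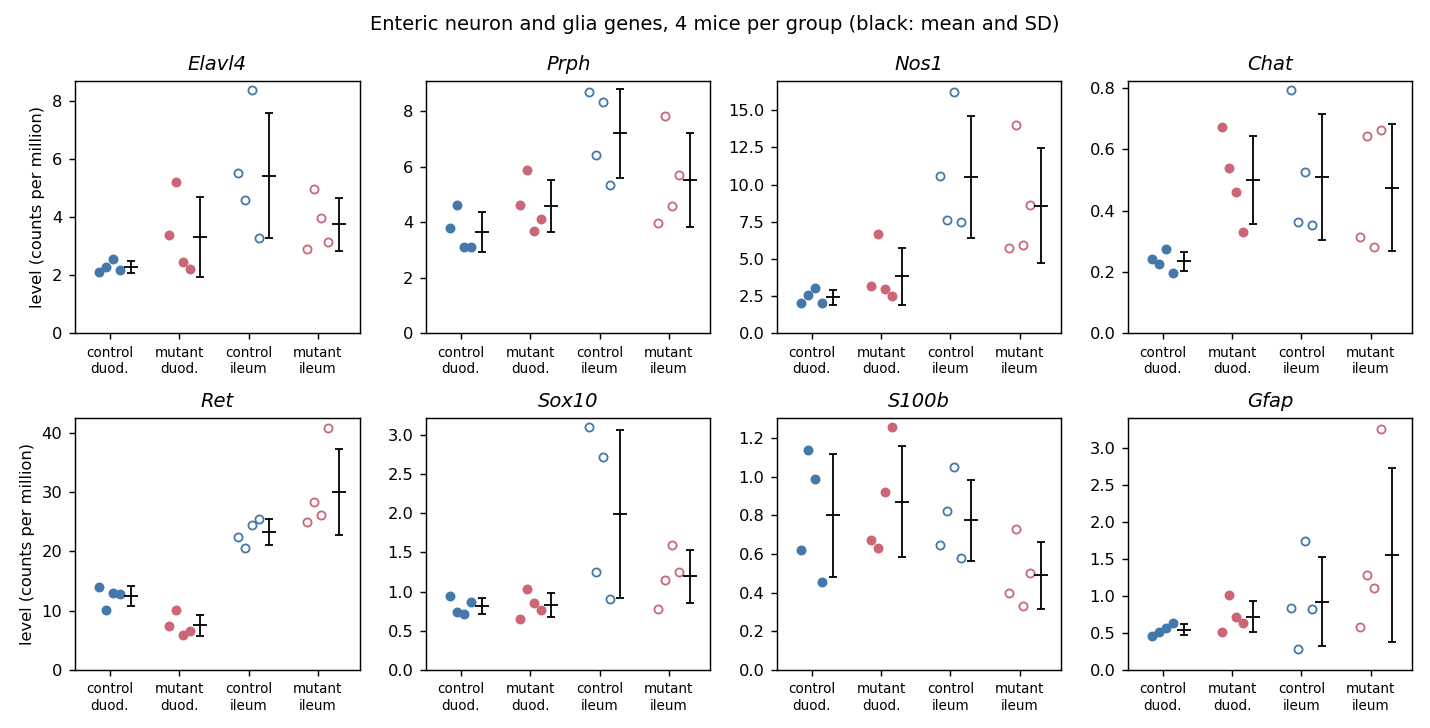
Levels in CPM of the 8 genes (vertical axes, 1 panel per gene) in the 4 groups (horizontal axes), with 1 point per mouse, blue for controls and red for mutants, filled for duodenum and open for ileum, and the mean and SD in black. Every control ileum lies above every control duodenum for Elavl4, Prph, Nos1, Chat and Ret, and every mutant duodenum lies above every control duodenum for Chat.

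The 250 bases before the transcription start listed by RefSeq are shown for 3 of the genes, because Prph and Nos1 varied together across libraries (r = 0.78, described further on) and S100b less with either (r = 0.376 and 0.336). RefSeq promoter sequences (GRCm38.p6, an earlier assembly than the mm39 of the count table) were found for 6 of the 8 genes; those of Ret and Sox10 are not shown. Capitals mark E-boxes, the CANNTG motif bound by basic helix-loop-helix factors, to which the NEUROG3 protein belongs, searched on both strands. Prph lies on chromosome 15 (chr15:99054924-99055173, plus strand), Nos1 on chromosome 5 (chr5:117866589-117866838, plus strand) and S100b on chromosome 10 (chr10:76253586-76253835, plus strand). The Nos1 window lies inside the gene as GENCODE M21 annotates it (117781032 to 117958840), not before the gene's first base. The Gfap window and some of the Elavl4 windows also lie inside their genes. Whether transcription starts at these sites in the gut was not tested.
Prph: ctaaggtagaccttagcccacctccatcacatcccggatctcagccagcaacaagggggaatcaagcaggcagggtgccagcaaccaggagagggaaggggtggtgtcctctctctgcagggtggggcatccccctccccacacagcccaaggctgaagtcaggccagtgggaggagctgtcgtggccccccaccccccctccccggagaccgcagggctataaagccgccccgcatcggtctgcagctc
Nos1: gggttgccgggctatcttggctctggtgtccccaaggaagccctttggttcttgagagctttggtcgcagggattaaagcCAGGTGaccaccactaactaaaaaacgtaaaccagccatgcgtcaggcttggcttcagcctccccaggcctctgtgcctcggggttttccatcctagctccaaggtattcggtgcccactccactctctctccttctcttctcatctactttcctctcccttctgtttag
S100b: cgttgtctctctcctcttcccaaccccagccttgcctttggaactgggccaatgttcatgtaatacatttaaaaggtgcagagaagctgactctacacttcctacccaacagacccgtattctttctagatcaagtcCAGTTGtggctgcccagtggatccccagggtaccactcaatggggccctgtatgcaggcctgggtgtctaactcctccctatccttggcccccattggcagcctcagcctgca
The Nos1 and S100b windows each held 1 E-box and the Prph window held 0; of the others, Chat held 2, Gfap 0 and the 4 listed starts of Elavl4 0 to 3, while 66.2% of 32851 promoters of this length in the table held at least 1. The site ACAAAG, a core bound by SOX factors, was in none of the windows of the 6 genes and in 16.5% of all promoters. These matches describe letters in a window and show no binding.

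Between tissues of control mice, genes of enteric neurons were higher in the ileum. Elavl4, Prph, Nos1, Chat and Ret rose from duodenum to ileum with all 4 ileum libraries above all 4 duodenum libraries, and the glial factor Sox10 rose with overlapping libraries. S100b and Gfap did not pass the test. In bulk tissue a lower transcript level can mean fewer cells of a type or less RNA in each, and these cannot be told apart here. The words rose and fell are used where a gene's adjusted p was under 0.05 in edgeR's quasi-likelihood test with Benjamini-Hochberg adjustment over all tested genes. By that rule 6 of the 8 genes were higher in the ileum and 0 lower. Of all 18217 genes tested, 28% were higher and 30.3% lower, and all 4 ileum libraries were above all 4 duodenum libraries for 24.7%, so that such calls were common between these tissues. The median log2 fold change was 1.07 for the 8 genes and -0.00497 for all genes.

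Elavl4 encodes HuD, an RNA-binding protein of differentiated neurons. Its level was 2.12, 2.30, 2.57 and 2.17 CPM in the duodenum of C133, C134, C151 and C154 and 5.53, 4.58, 8.38 and 3.27 in their ileum. The groups did not overlap, and C151 had the highest value in both tissues. The log2 difference was 1.27 (SE 0.25, adjusted p = 0.00158). Prph, peripherin, is a neurofilament-like protein of peripheral neurons. Prph was at 3.78, 4.62, 3.12 and 3.09 CPM in the control duodenum and 8.71, 6.44, 8.35 and 5.34 in the control ileum, in the same order of mice. Every ileum library was above every duodenum library, by 0.996 (SE 0.19, adjusted p = 0.00111).

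Nos1 makes nitric oxide, the transmitter of inhibitory motor neurons that relax gut muscle. Its levels were 2.02, 2.54, 3.06 and 2.03 CPM in control duodenum and 10.6, 7.63, 16.3 and 7.47 in control ileum. The lowest ileum library was well above the highest duodenum library, and the log2 difference of 2.14 (SE 0.27, adjusted p = 0.000122) was the largest among the 8 genes. An antisense gene, Gm26995, shares 268 exon bases with Nos1 in GENCODE M21; the libraries were made with a kit that keeps strand, but the strand setting of the counting is not given in the sources used here. Chat makes acetylcholine, the transmitter of excitatory neurons. Chat was at 0.240, 0.225, 0.274 and 0.197 CPM in control duodenum and 0.794, 0.364, 0.525 and 0.352 in control ileum. The groups did not overlap, and Chat rose by 1.15 (SE 0.35, adjusted p = 0.015); without C133, whose ileum was highest, the adjusted p was 0.0845.

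Ret, the receptor for the GDNF family of ligands, was the most abundant of the 8 genes by CPM. It was at 14.0, 10.1, 12.9 and 12.8 CPM in control duodenum and 22.5, 20.6, 24.4 and 25.4 in control ileum. The spread within each group was narrow and the groups did not overlap, with a log2 difference of 0.92 (SE 0.12, adjusted p = 7.58e-05).

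Sox10, the transcription factor of neural crest and glial cells, was at 0.941, 0.738, 0.717 and 0.866 CPM in control duodenum and 3.10, 1.25, 2.72 and 0.910 in control ileum. C133 and C151 were high in the ileum, while C154 lay inside the range of the duodenum. Sox10 rose by 1.31 (SE 0.37, adjusted p = 0.0113), with adjusted p of 0.0531 without C133 and 0.0823 without C151. S100b, a calcium-binding protein of glia, was at 0.621, 1.14, 0.991 and 0.453 CPM in control duodenum and 0.647, 0.824, 1.05 and 0.579 in control ileum, so the ranges overlapped, and its log2 difference was -0.03 (SE 0.33, adjusted p = 0.937). Gfap, an intermediate filament of glia, was at 0.461, 0.514, 0.569 and 0.630 CPM in control duodenum and 0.838, 0.287, 1.74 and 0.827 in control ileum. C134 had the lowest ileum value and C151 the highest. The Gfap log2 difference was 0.79 (SE 0.44, adjusted p = 0.148), and without C134 the adjusted p was 0.0316.

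Other genes of neurons and glia were counted in the same comparison. Of 13 tested pan-neuronal genes, 9 rose and 0 fell in the ileum of control mice, with a median log2 fold change of 0.837. The autonomic factor Hand2 rose by 1.73 (SE 0.18, adjusted p = 2.03e-05). Of 15 transmitter genes 6 rose and 1 fell, with a median of 0.427. Slc18a3 and Slc5a7, which load acetylcholine into vesicles and bring choline into the terminal, rose by 1.73 and 1.43 (adjusted p = 0.000212 and 0.000298), alongside Chat. Slc18a3 lies within Chat on the same strand with no shared exon bases. Of 14 glial genes 8 rose and 2 fell, with a median of 0.982, among them Scn7a at 1.40 (adjusted p = 5.72e-05). Over the same samples all 12 tested smooth muscle genes rose, with a median of 1.489, and 5 of 6 tested genes of interstitial cells of Cajal, the pacemaker cells of the muscle layers, rose with a median of 1.106.

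In mutant mice 2 of the 8 genes were called higher in the ileum than in the duodenum, Ret and Nos1, and 0 were called lower. Of 17852 genes tested 12.9% were called higher and 18.2% lower. The median log2 fold change was 0.402 for the 8 genes and -0.012 for all genes. Ret was at 7.43, 10.1, 5.83 and 6.60 CPM in the duodenum of M136, M167, M168 and M177 and at 25.0, 28.3, 26.1 and 40.8 in their ileum. The groups did not overlap, as with the ileum higher for 13.9% of all genes, and Ret rose by 2.004 (SE 0.21, adjusted p = 6.6e-05). Nos1 was at 3.19, 6.69, 2.95 and 2.52 CPM in mutant duodenum and 5.71, 14.0, 5.94 and 8.65 in mutant ileum. M167 was highest in both tissues, and its duodenum lay above the ileum of M136 and M168, so the groups overlapped. Nos1 rose by 1.16 (SE 0.39, adjusted p = 0.0467), with adjusted p of 0.0932 without M136, 0.0978 without M168 and 0.169 without M177; with the mouse as a block it was 0.000783.

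The other neuronal genes overlapped between the tissues of mutant mice. Elavl4 was at 3.39, 5.22, 2.44 and 2.22 CPM in mutant duodenum and 2.91, 4.97, 3.97 and 3.16 in mutant ileum, a log2 difference of 0.18 (SE 0.30, adjusted p = 0.687). M167 had the highest Elavl4 in the duodenum and in the ileum. Prph was at 4.62, 5.87, 3.70 and 4.13 CPM in mutant duodenum and 3.96, 7.84, 4.58 and 5.72 in mutant ileum, a difference of 0.27 (SE 0.24, adjusted p = 0.43). Chat was at 0.674, 0.538, 0.460 and 0.329 CPM in mutant duodenum and 0.315, 0.644, 0.280 and 0.664 in mutant ileum, a difference of -0.08 (SE 0.39, adjusted p = 0.903). M136 had the highest Chat of the duodenum libraries, and M167 and M177 the highest of the ileum libraries.

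Sox10, S100b and Gfap did not pass the test between the tissues of mutant mice. Sox10 was at 0.654, 1.03, 0.856 and 0.766 CPM in mutant duodenum and 0.778, 1.15, 1.59 and 1.26 in mutant ileum, a log2 difference of 0.53 (SE 0.28, adjusted p = 0.181). S100b was at 0.674, 0.632, 0.919 and 1.26 CPM in mutant duodenum and 0.397, 0.728, 0.332 and 0.502 in mutant ileum, a difference of -0.81 (SE 0.35, adjusted p = 0.1), which had an adjusted p of 0.0386 without M167. M177 had the highest S100b in the duodenum, and M167 the highest in the ileum. Gfap was at 0.515, 1.01, 0.710 and 0.630 CPM in mutant duodenum and 0.580, 1.29, 1.101 and 3.27 in mutant ileum. The ileum of M177 was more than any other library of the study, and the difference was 1.12 (SE 0.48, adjusted p = 0.0994), with an adjusted p of 0.0447 by DESeq2. Of the smooth muscle genes 10 of 12 rose in the ileum of mutant mice, and of the pan-neuronal genes 1 of 12, Hand2 (0.78, SE 0.19, adjusted p = 0.00978, and 0.0746 without M168 or 0.0664 without M177). Of 14 tested transmitter genes 6 rose and 2 fell there, with a median of 0.781. Those that rose included Tac1 by 2.52 and Dbh, the enzyme that makes noradrenaline, by 2.22 (adjusted p = 0.000167 and 0.000228). The peptide genes Grp and Calcb rose by 2.74 and 1.28 (adjusted p = 0.00247 and 0.00785), with an adjusted p of 0.114 for Grp without M167 and M177 and 0.0643 for Calcb without M136. Vip fell by 0.73 and Calb2 fell by 0.81 (adjusted p = 0.0116 and 0.0209), named after their values were seen. Of 14 tested glial genes 2 rose and 2 fell, with a median of 0.312. L1cam rose by 0.88 (SE 0.12, adjusted p = 0.000323) and Col28a1 by 1.21 (adjusted p = 0.0348, and 0.0524 to 0.212 without M136, M168 or M177). Entpd2, an ectonucleotidase of enteric glia, fell by 0.49 (adjusted p = 0.0387, and 0.096 to 0.205 without M136, M167 or M177).

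**Figure D2:**
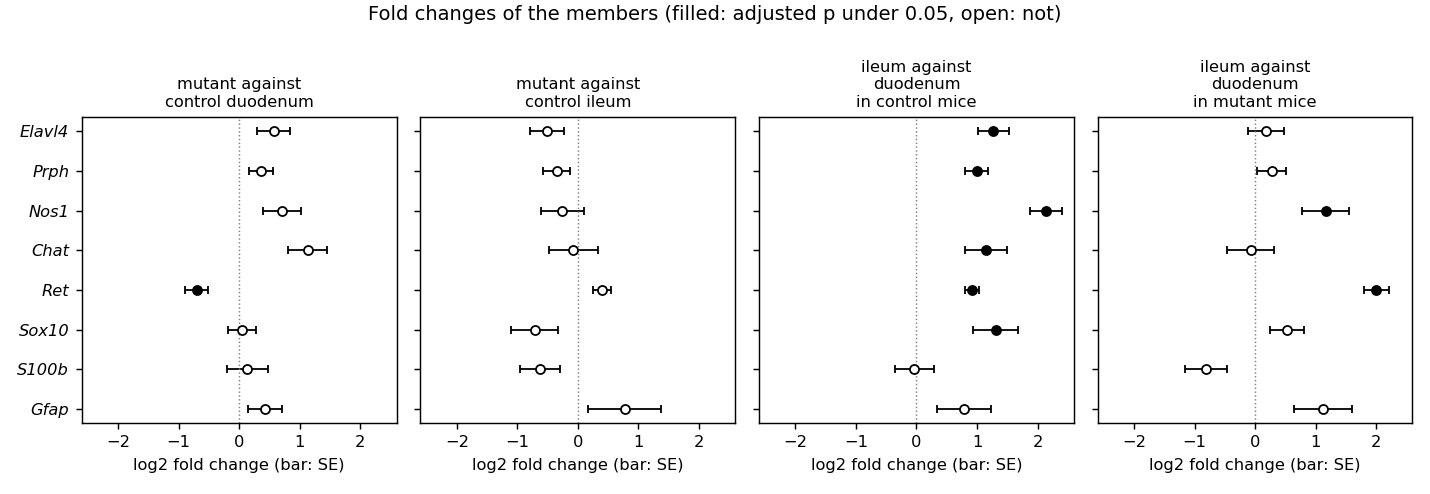
Log2 fold changes of the 8 genes (horizontal axes, point with SE bar) in the comparisons of genotype within each tissue and of tissue within each genotype, filled where the adjusted p was under 0.05. Filled points with the ileum above the duodenum are those of 6 genes in control mice and 2 in mutant mice. The fold change is above 0 for 7 genes in control mice and 6 in mutant mice. Ret is the only filled point in the comparisons of genotype, in the duodenum.

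Between genotypes in the duodenum, Ret was lower in mutants and was the only one of the 8 genes with an adjusted p under 0.05 in edgeR's test. Of all 17611 genes tested 5.11% were lower and 3.44% higher in the mutant duodenum. The median log2 fold change was 0.389 for the 8 genes, 7 of them above 0, and 0.0242 for all genes. Ret went from 12.4 ± 1.68 CPM in controls to 7.48 ± 1.84 in mutants (mean ± SD, n = 4), a log2 difference of -0.70 (SE 0.19, adjusted p = 0.0425). Of the mutants, M167 at 10.06 CPM overlapped with the lowest control, C134 at 10.05, and the other 3 mutants were below all controls. Ret was near the threshold: leaving out any mouse other than M167 gave an adjusted p of 0.0567 to 0.116, and a filter of 1 CPM gave 0.0514. With the smooth muscle genes as a covariate the Ret difference was -0.89 (adjusted p = 0.0257). Elavl4, Prph, Nos1 and Chat had differences above 0 in the same comparison, and which cells carried the Ret difference was not tested.

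Chat had the largest difference of the 8 genes in the duodenum. All 4 mutant libraries, at 0.329 to 0.674 CPM, were above all 4 controls, at 0.197 to 0.274, as were all mutant libraries above all controls for 7.38% of all genes. The log2 difference was 1.13 (SE 0.32, adjusted p = 0.051), with an adjusted p of 0.0382 in DESeq2's Wald test; it rested on 49 counts in controls and 91 in mutants. With the smooth muscle genes as a covariate it was 0.92 (adjusted p = 0.144). Chat is also a gene of tuft cells, chemosensory cells of the epithelium. Of 7 tested tuft cell genes 0 passed the test in the duodenum, 1 at an unadjusted p under 0.05 and 1 by DESeq2 (Alox5ap, -0.55, adjusted p = 0.0108). Among all genes there 29.2% had an unadjusted p under 0.05, and DESeq2 called 2955 of 17611. The summed level of the tuft cell genes was 101.8 to 110.5 CPM in controls and 101.8 to 129.6 in mutants.

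Elavl4, Prph and Nos1 did not pass the test in the duodenum. The log2 differences were 0.57 (SE 0.27, adjusted p = 0.185) for Elavl4, 0.36 (SE 0.20, adjusted p = 0.26) for Prph and 0.70 (SE 0.31, adjusted p = 0.161) for Nos1. M167 had the highest value of the 8 duodenum libraries for each of these genes. Without M167 the Nos1 difference was 0.28 (adjusted p = 0.428) and the Elavl4 difference was 0.25 (adjusted p = 0.471). M167 was also the mouse with the most exocrine pancreas RNA, and its duodenum had the highest summed level of smooth muscle genes of the duodenum libraries, at 2524 CPM. M177, close to M167 in pancreas RNA of the duodenum (174200 against 182000 CPM), had the lowest Elavl4 and Nos1 of the mutant duodenum libraries. Glial genes differed by 0.05 (SE 0.24, adjusted p = 0.917) for Sox10, 0.14 (SE 0.34, adjusted p = 0.822) for S100b and 0.42 (SE 0.28, adjusted p = 0.337) for Gfap, and their groups overlapped.

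In the mutant duodenum 5.11% of all genes were lower and 3.44% higher, 29.2% had an unadjusted p under 0.05, and DESeq2 called 2955 of 17611. Of 12 tested pan-neuronal genes 0 passed edgeR's test there, 1 at an unadjusted p under 0.05 and 1 by DESeq2 (Hand2, 0.58, adjusted p = 0.0397), and their median was 0.21. Those with the highest mean level, Tbx3 and Syt1, had differences of -0.22 and 0.35 (adjusted p = 0.58 and 0.228). It was not tested which cells made the Tbx3 transcript. Among 14 transmitter genes 4 fell and 0 rose. Tac1, which encodes substance P and is made by enterochromaffin cells as well as by neurons, fell by 3.45 (SE 0.27, adjusted p = 8.41e-05), from 3.13 to 4.85 CPM in controls to 0.274 to 0.564 in mutants. Th, the tyrosine hydroxylase of catecholamine synthesis, fell (adjusted p = 0.00357) from 98 counts over the 4 controls to 3 over the 4 mutants. Scaled to library size, Th was 27.6 times higher in controls, with an exact 95% interval of 9.16 to 135.9 that covers counting error only. The peptide genes Cartpt and Npy fell by 1.83 and 1.09 (adjusted p = 0.0134 and 0.0469). Whether neurons or enteroendocrine cells made the Th, Cartpt and Npy transcripts was not tested. Among 14 glial genes 2 rose and 0 fell: Lgi4, a secreted protein of glia, by 0.89 (SE 0.23, adjusted p = 0.0397), and L1cam, an adhesion molecule, by 0.51 (SE 0.11, adjusted p = 0.0211). Single mice decided some of these calls. The adjusted p of Lgi4 was 0.0739 to 0.107 without M167, M177 or any 1 control, that of L1cam 0.0535 to 0.0661 without C133, C134, C151 or M177, and that of Npy 0.0571 to 0.107 without any mouse other than M167. Of 12 smooth muscle genes 10 had a difference above 0 in the duodenum, with a median of 0.343, and 1, Acta2, rose (0.52, adjusted p = 0.0433). With these genes as a covariate Lgi4 was at 0.68 (adjusted p = 0.105) and L1cam at 0.49 (adjusted p = 0.0498). The enteroendocrine genes, 11 of 13 lower in the duodenum, had a summed level of 296 to 382.3 CPM in controls and 0.892 to 11 in mutants.

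In the ileum 0 of the 8 genes passed edgeR's test between genotypes, 1 (Ret) at an unadjusted p under 0.05 and 0 by DESeq2. Of all 18310 genes tested 19% were higher and 14.6% lower in the mutant ileum, 44% had an unadjusted p under 0.05, and DESeq2 called 37.6%. The median log2 fold change was -0.303 for the 8 genes and -0.0324 for all genes. Ret differed by 0.40 (SE 0.15, adjusted p = 0.0683), with M167, M168 and M177 above all controls and M136 within their range. Without a filter on low counts the Ret adjusted p was 0.0409, and without M136 it was 0.0493. Differences of the other neuronal genes were -0.50 (SE 0.28, adjusted p = 0.186) for Elavl4, -0.35 (SE 0.23, adjusted p = 0.26) for Prph, -0.25 (SE 0.36, adjusted p = 0.611) for Nos1 and -0.07 (SE 0.40, adjusted p = 0.904) for Chat. Those of the glial genes were -0.71 (SE 0.38, adjusted p = 0.174) for Sox10, -0.62 (SE 0.33, adjusted p = 0.17) for S100b and 0.77 (SE 0.60, adjusted p = 0.354) for Gfap. The groups overlapped for all 8 genes, while they did not for 32.5% of all genes. Without M167 the Prph adjusted p was 0.0456, without M167 and M177 it was 0.0384, and without C134 and C154, the controls with the least pancreas RNA in the duodenum, Elavl4 (-0.84, adjusted p = 0.045) and Sox10 (-1.24, adjusted p = 0.0156) passed the test.

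The counts of the wider lists of neuronal and glial genes in the mutant ileum stand beside 14.6% of all genes lower and 19% higher. Of 15 transmitter genes 6 fell and 0 rose there. Vip, a relaxant peptide of enteric neurons, was at 13.1, 17.7, 16.4 and 15.8 CPM in control ileum and 6.38, 7.67, 6.61 and 5.37 in mutant ileum, and it fell by 1.25 (SE 0.15, adjusted p = 0.000158) with no overlap. Tac1 fell by 0.98 (SE 0.23, adjusted p = 0.00709) and Th by 2.55 (SE 0.68, adjusted p = 0.0145). Of 14 pan-neuronal genes 3 fell, Tbx3 by 0.53, Snap25 by 0.74 and Stmn2 by 0.51 (adjusted p = 0.012, 0.0357 and 0.0473). The pan-neuronal list summed to 306.6 to 376.3 CPM in control ileum and 202.9 to 273.3 in mutant ileum. Genes of high level weigh most in such a sum, and Tbx3 had the highest mean of this list in the duodenum. In control duodenum the sum was 230.3 to 404.8 CPM, overlapping control ileum, although 9 of 13 tested genes rose between those tissues. The part of Tbx3 in the sums was not tested, so they do not measure neuronal content. Elavl4 alone was at 3.27 to 8.38 CPM in control ileum. The cells that made the Tbx3 transcript were not identified, so its fall cannot be assigned to neurons here. Of 13 glial genes 2 fell, a share near that of all genes, Entpd2 by 0.52 and Erbb3 by 0.54 (adjusted p = 0.00799 and 0.00888). Erbb3, at 576 to 1039 CPM in the ileum, is also an epithelial gene. Snap25 and Stmn2 were near the threshold, with adjusted p of 0.0523 to 0.103 for Snap25 without C133, C134, C151, M136, M168 or M177, and of 0.062 to 0.138 for Stmn2 without the same mice. Of 6 cytotoxic lymphocyte genes 6 fell in the same libraries and 13 of 13 enteroendocrine genes, and 2 of 12 smooth muscle genes rose and 1 fell.

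The genotype difference of Ret was not the same in both tissues. Ret fell in the mutant duodenum, its ileum mean was 30.1 ± 7.30 CPM in mutants against 23.2 ± 2.16 in controls (SD, n = 4), and the difference of the genotype effects, ileum minus duodenum, was 1.08 (SE 0.25, adjusted p = 0.0186). Ret was the only one of the 8 genes called in this comparison, which uses all 16 libraries and is not independent of those above. Of 19289 genes tested 4.86% were called higher and 4.13% lower, and the medians were -0.784 for the 8 genes and -0.0567 for all genes. Within mice, log2 CPM of Ret was higher in the ileum than in the duodenum by 0.686, 1.03, 0.914 and 0.994 in C133, C134, C151 and C154 and by 1.75, 1.49, 2.16 and 2.62 in M136, M167, M168 and M177. Each mutant difference was above each control difference, as for 14.3% of all genes. Without C133 the adjusted p was 0.0666 and without C151 0.0672; without C134 and C154 it was 0.106, and with the smooth muscle genes as a covariate 0.00625 for a difference of 1.16.

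With the mouse as a block, 4 of the 8 genes passed the test, as did 3956 genes in all (19.3% of those tested) against 1734 without it. Ret was then at 1.08 (adjusted p = 0.00544), Elavl4 at -0.97 (adjusted p = 0.0346), Nos1 at -0.91 (adjusted p = 0.0232) and Prph at -0.74 (adjusted p = 0.0488). Unblocked, these neuronal genes had differences of -1.09 (SE 0.41, adjusted p = 0.0887) for Elavl4, -0.73 (SE 0.32, adjusted p = 0.135) for Prph and -0.98 (SE 0.50, adjusted p = 0.2) for Nos1. Within mice, Prph was higher in the ileum by 0.475 to 1.41 in controls, and by -0.221 to 0.466 in mutants, with no overlap, as for 10.7% of all genes with mutants lower. For Elavl4 the ranges were 0.586 to 1.69 and -0.216 to 0.69, and for Nos1 1.57 to 2.40 and 0.832 to 1.77, both with overlap. The unblocked differences of the others were -1.22 (SE 0.52, adjusted p = 0.126) for Chat, -0.78 (SE 0.48, adjusted p = 0.279) for S100b, -0.78 (SE 0.48, adjusted p = 0.275) for Sox10 and 0.33 (SE 0.70, adjusted p = 0.776) for Gfap, and none of these 4 passed with the block. With the smooth muscle genes as a covariate the unblocked differences were -0.80 for Elavl4 (adjusted p = 0.123) and -0.66 for Nos1 (adjusted p = 0.208).

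**Figure D3:**
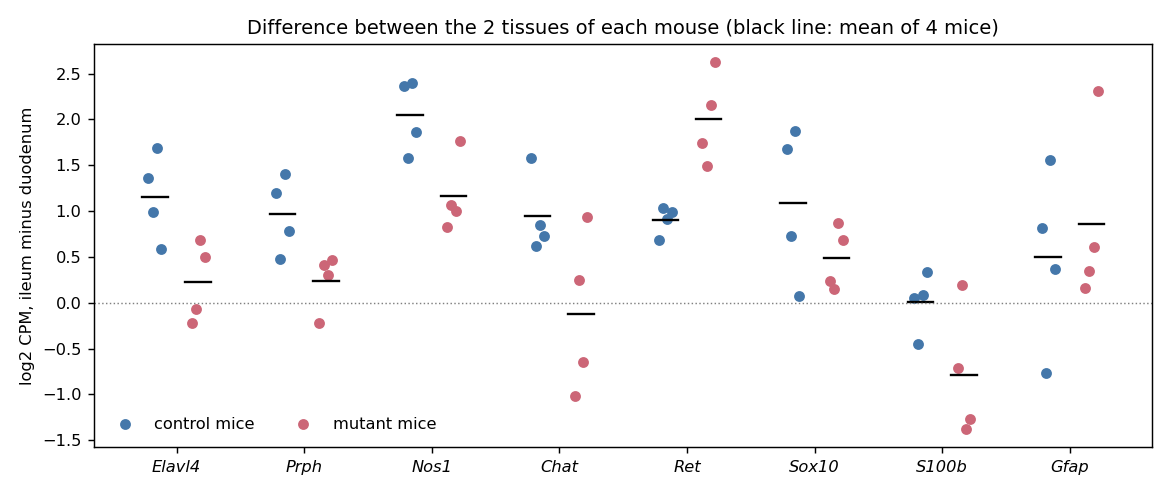
Difference in log2 CPM between ileum and duodenum of the same mouse (vertical axis) for each of the 8 genes (horizontal axis), with 1 point per mouse, blue for 4 controls and red for 4 mutants, and black lines for the means. Ret differences are 0.686 to 1.03 in controls and 1.49 to 2.62 in mutants, and Prph differences are lower in mutants, without overlap in either gene.

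RET acts with GFRA co-receptors, which bind its ligands. Gfra1, the co-receptor for GDNF, was at 2.42, 2.62, 2.87 and 2.11 CPM in control duodenum, 3.35, 6.18, 2.76 and 4.22 in mutant duodenum, 6.42, 5.75, 7.18 and 4.74 in control ileum and 3.68, 5.26, 4.11 and 4.31 in mutant ileum. Its genotype effect was lower in the ileum than in the duodenum by -1.21 (SE 0.31, adjusted p = 0.0274), opposite in sign to that of Ret; without M136, M177 or any 1 control its adjusted p was 0.0524 to 0.0841. Gfra3, the co-receptor for artemin, was at 3.66, 2.28, 3.33 and 3.15 CPM in control duodenum and 0.0595, 0.0702, 0.334 and 0.329 in mutant duodenum, and it fell by 3.96 (SE 0.46, adjusted p = 0.00138) with no overlap. In the ileum Gfra3 fell by 2.19 (SE 0.27, adjusted p = 0.000233) and Gfra2, the co-receptor for neurturin, by 0.87 (SE 0.19, adjusted p = 0.00547). In the mutant duodenum and ileum the median log2 difference was -5.1 and -7.651 for 13 enteroendocrine genes. For the pan-neuronal genes it was 0.21 and -0.476. The cells that made Gfra3 were not identified, so its fall cannot be assigned to neurons or to endocrine cells here. Of 11 tested genes of RET and endothelin signalling, 0 rose and 1 fell in the mutant duodenum (median -0.039) and 0 rose and 2 fell in the mutant ileum (median -0.378). Between tissues of control mice 6 rose and 0 fell, among them Gfra1 by 1.28, Gfra2 by 1.55 and Artn, the ligand artemin, by 1.85 (adjusted p = 7.19e-05, 7.01e-05 and 0.000748). Edn3, the ligand endothelin 3, rose by 1.504 in the ileum against the duodenum of mutant mice (SE 0.21, adjusted p = 0.000432), as did Gfra4, the co-receptor for persephin, by 1.28 (adjusted p = 0.0152, and 0.062 to 0.0896 without M136, M168 or M177). With the mouse as a block 5 genes of this list rose there, Edn3, Gfra4, Gdnf, Gfra2 and Zeb2, and 1 fell, Nrtn (adjusted p = 6.17e-05, 0.0252, 0.0435, 0.0427, 0.0355 and 0.0295); of all 19149 genes tested with the block 7168 were called there, or 37.4%.

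**Figure D4:**
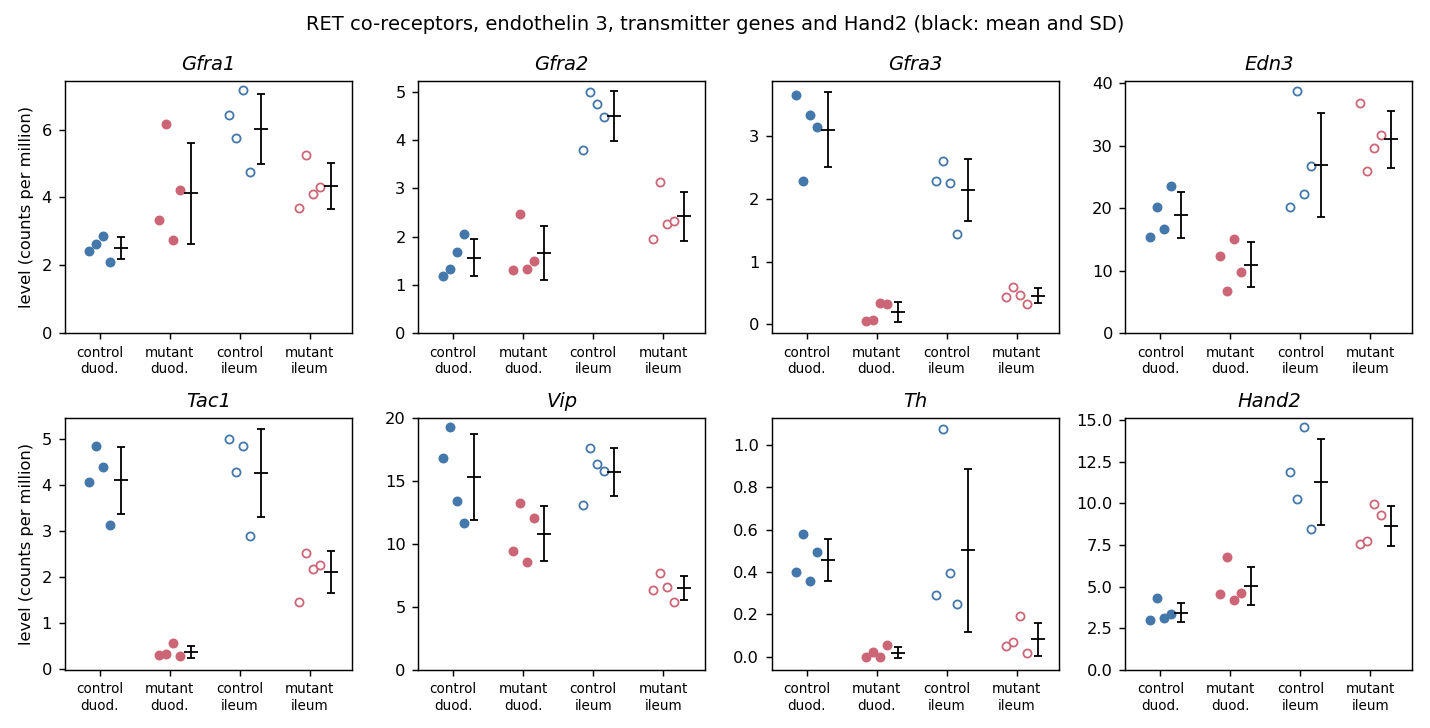
Levels in CPM (vertical axes) of the RET co-receptors Gfra1, Gfra2 and Gfra3, of Edn3, Tac1, Vip and Th, and of Hand2 in the 4 groups (horizontal axes), with 1 point per mouse, blue for controls and red for mutants, filled for duodenum and open for ileum, and the mean and SD in black. Gfra3, Tac1 and Th are lower in all mutant libraries than in all control libraries of the same tissue, and Vip in the ileum.

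In the genotype by tissue comparison the mouse as a block moved the calls over all genes from 1734 to 3956, which is 19.3% of the genes tested with it, and the counts of the lists below are to be read against that share. Of 15 pan-neuronal genes 1, Hand2, was called without the block, at -0.96 (SE 0.26, adjusted p = 0.036, and 0.0508 to 0.132 without C133, C151, C154, M136, M167 or M177), and 3 with it: Hand2, Syt1 and Elavl3 (adjusted p = 0.0322, 0.0104 and 0.0491), each negative. Of 14 glial genes 0 were called without the block by edgeR, 4 at an unadjusted p under 0.05 and 1 by DESeq2. Among all genes 30.4% had an unadjusted p under 0.05 without the block, and DESeq2 called 3187 of 19289. With the block 5 glial genes were called: Cdh19, Gpr37l1, Kcna1, Lgi4 and Scn7a, each negative (adjusted p = 0.0251 to 0.0407). Of 15 transmitter genes 1, Tac1, was called without the block at 2.44 (SE 0.35, adjusted p = 0.0029), and 3 with it: Tac1 at 2.46, Vip at -0.79 and Calb2 at -0.70 (adjusted p = 0.000753, 0.0223 and 0.0285). Of 11 RET and endothelin genes 1, Gfra1, was called without it, and 4 with it: Edn3 at 1.05, Gfra3 at 1.83, Gfra1 at -1.15 and Gfra2 at -0.99 (adjusted p = 0.00672, 0.0411, 0.00467 and 0.0173). The genes outside the 8 that only the block called were chosen after their values were seen.

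Across the 16 libraries, with the mean of each group removed, several of the 8 genes varied together. Pearson's r of log2 CPM was 0.862 for Elavl4 and Nos1, 0.78 for Prph and Nos1, 0.71 for Elavl4 and Prph and 0.687 for Prph and Chat, and it was 0.642 for Nos1 and Chat and 0.482 for Elavl4 and Chat. Some pairs with a glial gene had values in the same range, at 0.628 for Ret and Gfap, 0.605 for Elavl4 and Sox10, 0.569 for Nos1 and Gfap, 0.533 for Prph and Sox10 and 0.518 for Sox10 and Gfap. Ret had r of 0.28 to 0.464 to these neuronal genes, and S100b of -0.287 to 0.376 to the other 7 genes. With the glial genes Sox10 and Gfap, S100b had r of -0.008 and 0.125. Against the mean of the smooth muscle genes, r was 0.785 for Chat, 0.762 for Nos1, 0.74 for Prph, 0.67 for both Elavl4 and Ret, 0.664 for Gfap and 0.584 for Sox10, and 0.128 for S100b. These values describe libraries that share mice and dissection, and no test was made.

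**Figure D5:**
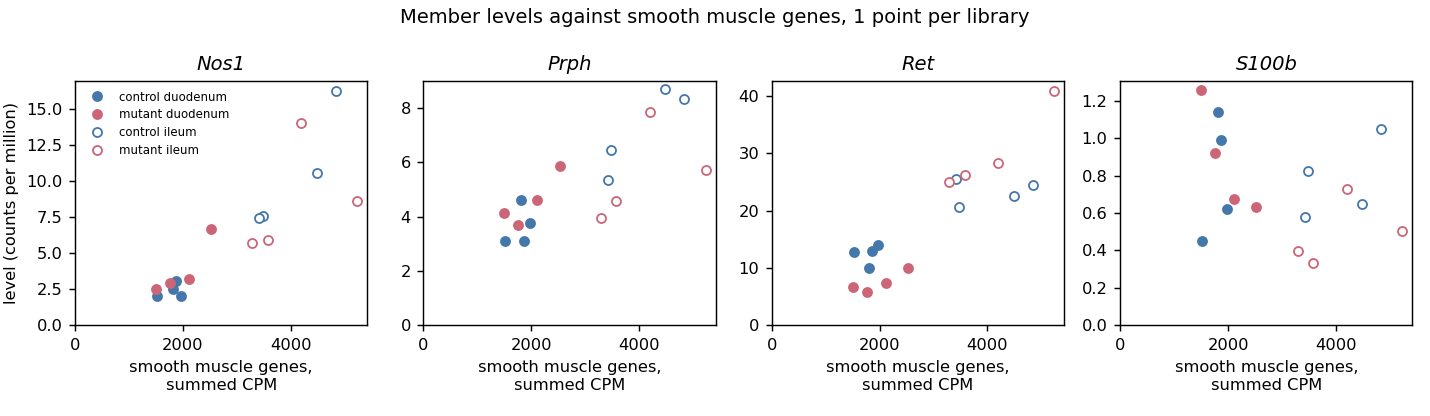
Levels in CPM of Nos1, Prph, Ret and S100b (vertical axes) against the summed CPM of smooth muscle genes (horizontal axes), with 1 point per library, blue for controls and red for mutants, filled for duodenum and open for ileum. Ileum libraries lie between 3289 and 5234 CPM of muscle genes and duodenum libraries between 1498 and 2524, and Nos1, Prph and Ret are higher where muscle genes are higher while S100b is not.

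Among 14220 named genes with a mean of at least 1 CPM (14221 for the members below it), those most like each of the 8 were named by r over the 16 libraries with group means removed. The closest to Nos1 were Chrna3, a subunit of the nicotinic receptor of autonomic neurons, at 0.966, Lrch2 at 0.956 and Lgi4 at 0.939. The closest to Elavl4 were Fam171b at 0.944, Sparcl1 at 0.935 and Gucy1a1, a subunit of the receptor for nitric oxide, at 0.928. The closest to Prph were Zcchc12 at 0.932, the neuronal hydrolase Uchl1 at 0.922 and Arhgef25 at 0.92. For Chat they were Hoxd8 at 0.919, Reg4 at 0.899 and Sgcd, a sarcoglycan of muscle, at 0.889. For Ret they were Dock6 at 0.854, Grem1 at 0.836 and Gm609 at 0.831. The glial genes had Syt2 at 0.888, Pard3 at 0.858 and Rbm10 at 0.835 for Sox10, Cgas at 0.947, Dna2 at 0.928 and Tagap1 at 0.898 for S100b, and St6galnac6 at 0.886, Flot2 at 0.875 and Efemp2 at 0.859 for Gfap.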

How the data were processed

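The authors deposited raw counts per gene as whole numbers for 16 libraries, which were used as they stand. HTSeq 0.6.1p1, STAR 2.5.3a, Bowtie2 2.2.8, cutadapt 1.10 and the mm39 build are named in the submitters' processing notes. Whether counting used strand, and which annotation it used, is not given in the sources used here. Gene names came from GENCODE M21, which named 52083 of 55359 identifiers. Groups follow the genotype and tissue in the labels.

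Each comparison was fitted on its own libraries with edgeR 4.0.16 (R 4.3.3): filterByExpr, scaling by the trimmed mean of M values, the robust quasi-likelihood F test, and Benjamini-Hochberg adjustment over all tested genes at 0.05. CPM used scaled library sizes over all 16 libraries, and log2 CPM a prior count of 2. A fold change's SE is its size divided by the square root of F. At 40.9 to 67.2 M counts per library, 1 count was worth 0.014 to 0.0274 CPM, and counting error limits the genes with the fewest counts.

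Always named were the 8 genes and Neurog3; from each list, up to 4 genes with the smallest p among those called, or the 2 of highest mean CPM where none was called; and the 3 genes most correlated with each of the 8. Some genes that meet this rule are not reported here. The 8 genes and the lists were chosen with earlier results of these data known.

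The library titles carry the same mouse numbers in both tissues. Residuals of the duodenum and ileum libraries of a mouse correlated at r of 0.221 to 0.481, above every other mouse in 7 of 8 mice, so the numbers pair the libraries. Alternatives were the mouse as a block, a covariate of smooth muscle genes, leaving out single mice or pairs of them, a joint fit of all 16 libraries, other filters (none, or 1 CPM in 4 libraries), size factors from DESeq2, and its Wald test (version 1.42.0).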

Additional observations from a re-analysis of the deposited data

Results flagged for a closer look

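Nos1 in the duodenum of M167 was at 6.69 CPM, and the other 3 mutant duodenum libraries were at 2.52 to 3.19. This library was flagged as far from the rest of its group by Dixon's test, the only one among 32 groups tested for the 8 genes, where chance flags about 1 in 20. The same library had the highest Elavl4 and Prph of all duodenum libraries and the most exocrine pancreas RNA, at 182000 CPM. It also had the highest summed levels of smooth muscle genes (2524 CPM) and interstitial cell genes (117.3 CPM) of the duodenum libraries. M177, with 174200 CPM of pancreas genes, had the lowest Nos1 of the mutant duodenum libraries, at 2.52 CPM. The part of these tissues in the M167 values was not tested.

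The difference between mutants and controls was not the same in both tissues for Ret and 4 listed genes. Those 4 belong to the neuronal, RET signalling and interstitial cell lists. The test was that of the genotype by tissue term in edgeR without the mouse as a block, which leaves out the pairing. With the block, 4 of the 8 genes passed, as did 19.3% of all genes tested. The values that follow are without the block. Ret differed by 1.08 on the log2 scale (ileum minus duodenum, adjusted p = 0.0186). Tac1 differed by 2.44 in the same direction (adjusted p = 0.0029). Hand2 at -0.96 (adjusted p = 0.036), Gfra1 at -1.21 (adjusted p = 0.0274) and Kit, the receptor that marks interstitial cells of Cajal, at -0.92 (adjusted p = 0.0179) differed in the opposite direction. Without C134 and C154 the adjusted p was 0.106 for Ret, 0.0618 for Tac1, 0.0806 for Hand2, 0.122 for Gfra1 and 0.0975 for Kit. Among the named genes of the other cell type lists the same test called Pyy at -8.38, Iapp at -5.41, Cd3e at -1.62 and Cd8a at -1.78 (adjusted p = 0.00512, 0.0357, 0.0194 and 0.0213).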

How the results depend on the processing

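Of the 8 genes, 1 was called in the duodenum between genotypes, but 2 by DESeq2, 0 with a filter of 1 CPM, 0 without C134 and C154, and 0 to 1 with a mouse left out. All calls there were 2955 of 17611 genes by DESeq2, 1464 of 13661 with the filter of 1 CPM and 200 of 18252 without C134 and C154. They were 445 of 18342 without M167 and M177, 2491 of 19289 with all libraries in 1 fit and 963 of 18658 with the muscle covariate. With a mouse left out they were 476 to 2139 of 17861 to 17975. In the ileum 1 of the 8 was called without a filter, 2 without C134 and C154, 1 without M167 and M177, and 0 to 1 with a mouse left out. All calls were 5707 of 32118 genes without a filter, 4067 of 19230 without C134 and C154 and 5615 of 19216 without M167 and M177. With a mouse left out they were 4670 to 7141 of 18535 to 18753. Between tissues of mutants the count of the 8 genes was 1 without a filter and 1 to 3 with a mouse left out. All calls there were 5449 of 31822 genes without a filter and 3960 to 4418 of 17788 to 18116 with a mouse left out. For genotype by tissue the count of the 8 genes was 0 without C134 and C154, 4 with the mouse as a block, and 0 to 1 with a mouse left out. All calls were 3187 of 19289 genes by DESeq2, 22 of 20053 without C134 and C154 and 3956 of 20487 with the block. With a mouse left out they were 184 to 2009 of 19489 to 19658. The block changed no other call of the 8 genes.

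Differences near 0 changed sign. In the duodenum Sox10 was -0.10 without M167 and M177 and -0.0355 with the muscle covariate, Tbx3 0.0695 without M167 and M177, and Dclk1 -0.0279 with the covariate. Gfap was -0.10 in the ileum without M167 and M177, and S100b 0.11 between tissues of controls without C134 and C154. For genotype by tissue Gfap was -0.25 without C134 and C154 and -0.32 without M167 and M177. With a mouse left out, the duodenum ranges were -0.0855 to 0.15 for Sox10, -0.0862 to 0.37 for S100b and -0.0041 to 0.16 for Dclk1. They were -0.26 to 0.22 for Chat and -0.61 to 0.0374 for Nos1 in the ileum, -0.11 to 0.20 for S100b between tissues of controls, -0.41 to 0.26 for Chat between tissues of mutants, and -0.36 to 0.82 for Gfap by genotype and tissue. Leaving mice out left fewer samples; the cause of the other changes was not tested. DESeq2 size factors moved no call of the 148 gene values.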
